A study of Mus musculus with 18 samples.

Results

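The question here was which genes of mouse macrophages answer the bacterial cell wall fragment MDP differently when the receptor TLR4 has been knocked out. Bone marrow of C57BL/6J mice, wild-type or knocked out for TLR4, was grown into macrophages with supernatant of L929 cells, which supplies the growth factor M-CSF. On day 7 they were given water or MDP for 24 h in serum-free IMDM, and poly(A) RNA was sequenced. The 4 groups, wild-type water, wild-type MDP, knockout water and knockout MDP, held 3 libraries each, so 12 of the 18 libraries of the series entered the main test. The other 6 received GM, the disaccharide GlcNAc-MurNAc, and entered 1 comparison at the end. The labels call the replicates biological. They give neither the doses, nor the knockout allele, nor the sex or age of the mice, nor whether replicates were separate animals or pools. The p-values therefore reflect a spread among libraries that may be partly technical. The labels write MDP as MurNAc-D-Ala-L-Gln, which differs from the natural NOD2 ligand (L-Ala-D-isoGln on MurNAc), and which molecule was given was not settled here.

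As background, TLR4 sits on the macrophage surface and in endosomes, where it senses bacterial lipopolysaccharide and signals to NF-kB and, through the adaptor TRIF, to type I interferon. Muramyl dipeptide is sensed inside the cell by NOD2, which recruits the kinase RIPK2 and also leads to NF-kB. SOCS proteins are induced by cytokine signalling and dampen it by blocking JAK kinases and cytokine receptors.

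The libraries held 15532973 to 20682663 counts, and levels are given as CPM, counts scaled to library size. Tlr4 ranged from 117 to 230 CPM in wild-type libraries and from 46.3 to 52.9 CPM in knockout libraries, so its transcript was lower but present in the knockout. Its fitted MDP response did not pass a difference between genotypes (log2 difference -0.45, SE 0.20, adjusted p = 0.19). Summed macrophage markers were 4124 to 5427 CPM in the 12 libraries. The groups did not spread alike: the coefficient of variation between replicates, beyond counting error, was 34.6% for untreated wild type but 8.1%, 5.69% and 6.48% for wild-type MDP, knockout water and knockout MDP. The wide spread came with wild-type water replicate 3, which lay at -40.0 on the second principal component, against -14.3 and -12.9 for replicates 1 and 2. Counts for the gene groups described below are also given without it.

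For each gene, the log2 change from water to MDP in wild type minus that in knockout (the interaction) was tested, so a positive value means a higher response in wild type. Of 15013 genes tested, 1237 (8.24%) passed at an adjusted p below 0.05, 719 (4.79%) with a higher and 518 (3.45%) with a lower response in wild type. Without wild-type water replicate 3, 4038 genes (26.9%) passed, among them 1235 of the 1237 with the same sign. Without wild-type water replicate 1 or 2, 1519 and 1281 passed, and without any 1 of the wild-type MDP and knockout libraries 662 to 785 did. Of the 1237, 567 passed in all 12 fits that left out a library. The difference was already large before treatment: 4865 genes (32.4%) differed between the genotypes in water and 3888 (25.9%) under MDP. The interaction thus compares responses that started from different levels. Whether TLR4 itself or another difference between the 2 sets of cultures gave these differences cannot be told apart in this design.

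The 1237 genes were then split by what happened inside each genotype, where MDP against water passed for 1248 genes (8.31%) in wild type and 2964 (19.7%) in knockout. That order turned when both responses came from 1 fit of the 12 libraries with a shared spread, which gave 3662 and 394 genes, and then 831 wild-type-only and 67 knockout-only genes. With each genotype's own fit, opposite signs were uncommon: 77 genes passed in both genotypes with opposite signs, 32 higher in wild type and lower in knockout and 45 the other way. In 24 of them, 6 and 18, both changes were at least 1.5-fold. A further 412 genes passed in wild type only, with a change under 1.5-fold in knockout, 211 of them higher and 201 lower. The mirror class, knockout only, held 191 genes, of which 75 rose and 116 fell in knockout. Another 193 passed in both genotypes in the same direction but by different amounts. Of the rest, 199 passed in neither genotype, and 35 and 130 passed in wild type or in knockout but changed by 1.5-fold or more in the other genotype. Leaving out wild-type water replicate 3 gave 456 opposite genes, 94 of them by 1.5-fold, 2034 wild-type-only and 524 knockout-only genes. At the edge of the threshold stood C1qc, just inside, and Stom, just outside, with interactions of 1.62 and 0.35 on the log2 scale.

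**Figure D1:**
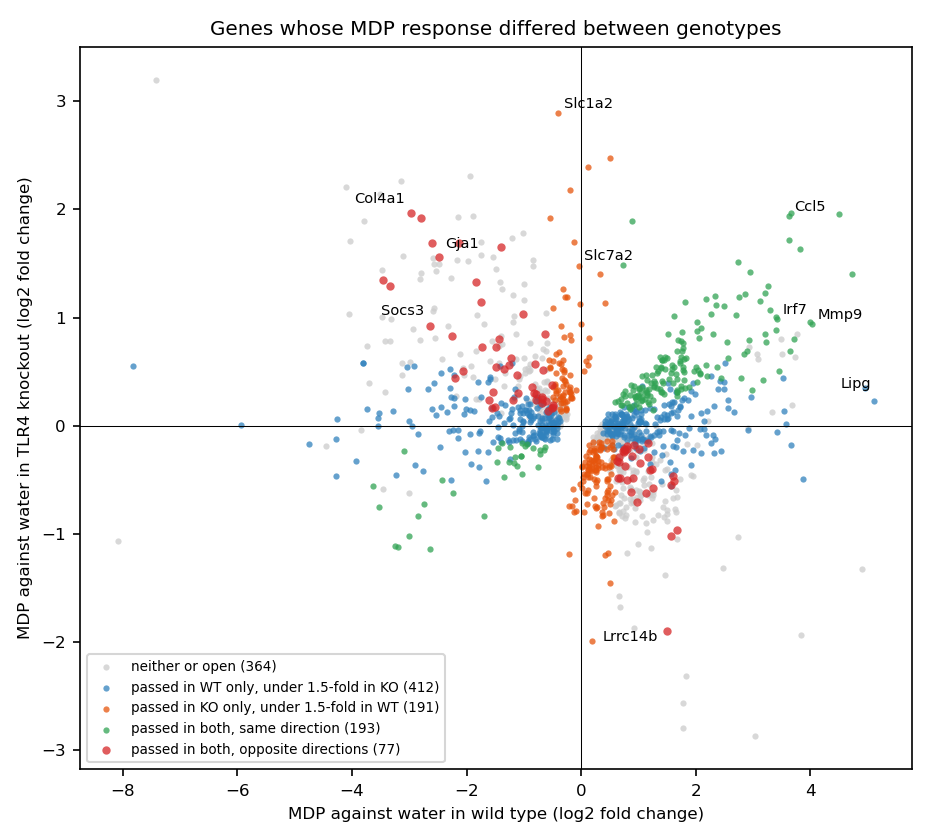
Log2 change from water to MDP in wild type (x axis) and in TLR4 knockout (y axis) for the 1237 genes whose responses differed, 1 point per gene, coloured by class. The 77 opposite genes lie in the upper left and lower right, and 158 of the 160 genes that rose in both rose more in wild type. That share is partly set by the class, whose members had to pass in wild type. The axes have different scales.

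The clearest opposite change was in Socs3, the feedback inhibitor of gp130-family and other cytokine receptors (ENSMUSG00000053113, GRCm39 chromosome 11, 117856905 to 117860873). Its level was 71.7, 62.4 and 77.0 CPM in wild-type water and 11.7, 11.04 and 10.9 CPM in wild-type MDP. In knockout it was 70.6, 71.5 and 82.6 CPM in water and 133, 150 and 139 CPM with MDP. The genotypes therefore started level and ended far apart. Water and MDP libraries did not overlap in either, which the rule for naming genes required. The log2 change was -2.64 (SE 0.12, adjusted p = 0.00064) in wild type and 0.92 (SE 0.06) in knockout, an interaction of -3.56 (SE 0.14, adjusted p = 2.1e-07).

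Socs1, which blocks JAK kinases and interferon receptor signalling, went the same way: its mean fell from 35.3 to 12.9 CPM in wild type and rose from 10.2 to 17.8 CPM in knockout (interaction -2.25, SE 0.16, adjusted p = 3.5e-05). Unlike Socs3, it already differed in water, with a knockout-minus-wild-type log2 difference of -1.79 (SE 0.12). Cish, the SOCS family member induced by STAT5, fell in wild type only, from a mean of 93.4 to 9.55 CPM, and was 20.9 and 22.7 CPM in knockout water and MDP (interaction -3.41, SE 0.37, adjusted p = 0.00056). Cd80, a ligand of CD28 on T cells, traded places: its mean was 57.3 ± 8.32 and 36.9 ± 2.52 CPM in wild-type water and MDP, and 35.2 ± 2.98 and 63.0 ± 6.92 CPM in knockout (SD, n = 3). Its interaction was -1.47 (SE 0.17, adjusted p = 0.00056). Socs1 and Cish were singled out after their values were seen.

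The stretches of 250 bases before the starts of Socs3 and Socs1 are shown because these inhibitors carry the opposite pattern, and that before Ifit3 because it had the largest interaction among the interferon genes described below. They are RefSeq sequences of build GRCm38.p6, read 5′ to 3′ on the gene's strand. Capitals mark matches, on either strand, to TTCNNNGAA (a STAT site form, added after the values were seen) in Socs3 and to GAAANNGAA (the core of the interferon-stimulated response element) in Socs1 and Ifit3. Both Socs genes lie on the minus strand and Ifit3 on the plus strand.
Socs3, chr11:117969367-117969616: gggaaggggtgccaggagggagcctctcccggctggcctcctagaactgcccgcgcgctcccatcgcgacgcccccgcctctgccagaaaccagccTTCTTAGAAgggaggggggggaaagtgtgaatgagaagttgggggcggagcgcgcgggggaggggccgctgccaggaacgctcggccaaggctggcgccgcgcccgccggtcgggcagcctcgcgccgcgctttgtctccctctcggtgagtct
Socs1, chr16:10785537-10785786: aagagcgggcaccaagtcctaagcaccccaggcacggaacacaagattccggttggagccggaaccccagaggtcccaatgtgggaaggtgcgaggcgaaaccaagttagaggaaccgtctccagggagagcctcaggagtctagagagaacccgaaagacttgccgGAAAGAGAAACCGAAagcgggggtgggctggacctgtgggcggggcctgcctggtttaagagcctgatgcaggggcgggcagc
Ifit3, chr19:34583279-34583528: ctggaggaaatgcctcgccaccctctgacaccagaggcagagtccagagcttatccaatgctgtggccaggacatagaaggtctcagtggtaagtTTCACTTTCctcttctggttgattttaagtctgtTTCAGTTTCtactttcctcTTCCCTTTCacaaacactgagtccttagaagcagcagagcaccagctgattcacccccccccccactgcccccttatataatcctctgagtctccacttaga
The Socs3 match lies 154 to 146 bases before the start. Socs1 has 2 overlapping matches, 83 to 75 and 77 to 69 bases before it, and Ifit3 has 3, at 155 to 147, 121 to 113 and 102 to 94. The 250 bases before Ifit2, another interferon gene described below, held 0 matches to GAAANNGAA and 1 to TTCNNNGAA. In windows of 250 bases before to 50 after the start, GAAANNGAA occurred in 954 of the 10552 tested genes with an entry (9.04%). It occurred in 8 of 54 opposite genes (14.8%), 14 of 134 wild-type-only genes that rose (10.4%) and 25 of 121 genes that rose in both genotypes (20.7%). The shares were 13 of 158 (8.23%) for wild-type-only genes that fell. For knockout-only genes they were 5 of 63 (7.94%) that rose and 7 of 91 (7.69%) that fell. TTCNNNGAA occurred in 855 of all windows (8.1%) and in 2 of 54 opposite genes (3.7%), and GGGANTTTC, an NF-kB site form, in 135 (1.28%) and in none of the 54. In the other classes listed above TTCNNNGAA occurred in 8.23% to 14.3% of genes and GGGANTTTC in 0% to 2.48%. A match describes the letters only.

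The other 5 genes named by rule that fell in wild type and rose in knockout were Col4a1, Col4a2, Gja1, Enpp2 and P4ha2. Col4a1 and Col4a2, the chains of basement membrane collagen IV, are neighbours read in opposite directions (GRCm39 chromosome 8, 11248423 to 11362826 and 11362805 to 11499287, so their ends overlap). Col4a1 was at 35.0, 30.8 and 13.7 CPM in wild-type water and 3.39, 3.54 and 3.10 CPM with MDP. In knockout it was at 1.12, 1.47 and 0.621 CPM in water and 4.70, 3.90 and 4.19 CPM with MDP, so both treated groups ended at a similar level (knockout minus wild type under MDP 0.35, adjusted p = 0.49). Its interaction was -4.94 (SE 0.49, adjusted p = 0.0003) and that of Col4a2 -3.81 (SE 0.49, adjusted p = 0.00089).

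Gja1, the gap junction protein connexin 43, was at 11.05, 11.5 and 7.20 CPM in wild-type water and 1.75, 1.67 and 1.87 CPM with MDP. In knockout it rose from 2.34, 2.16 and 2.42 CPM to 6.43, 7.10 and 6.70 CPM (interaction -4.04, SE 0.28, adjusted p = 2.4e-05). Enpp2, which encodes autotaxin, the enzyme that makes lysophosphatidic acid, fell from a mean of 5.79 to 0.821 CPM in wild type and rose from 1.49 to 5.48 CPM in knockout (interaction -4.69, SE 0.54, adjusted p = 0.00056). Its knockout MDP libraries were spread, at 3.02, 8.56 and 4.85 CPM. P4ha2, a subunit of collagen prolyl hydroxylase, fell from 15.1 to 4.17 CPM and rose from 1.30 to 3.15 CPM (interaction -3.16, SE 0.43, adjusted p = 0.0012). Separate water and MDP libraries in both genotypes were a condition for naming these 5 genes.

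Fibroblast and stroma markers also fell from water to MDP in wild type, as these genes did. Their sum over 14 genes was 390, 353 and 82.8 CPM in wild-type water, 24.4 to 34.7 CPM in wild-type MDP, 27.7 to 30.8 CPM in knockout water and 18.9 to 23.2 CPM in knockout MDP. None of the 14 was at 0 in all 12 libraries. Of the 13 tested, 10 fell with MDP in wild type (background of genes that fell 3.65%) and 1 in knockout (9.61%), and 4 passed the interaction (Dcn, Pdgfra, Pdgfrb and Acta2), all lower, or 11 without wild-type water replicate 3, all lower. The part of these cells in the falls of Col4a1, Col4a2, Gja1, Enpp2 and P4ha2 in wild type was not tested; in bulk RNA, fewer cells of a type and less RNA per cell cannot be told apart. In knockout the marker sum was lower with MDP and those 5 genes rose, and the part of these cells there was not tested either. Wild-type water replicate 3 had the lowest marker sum of its group, and the interaction of Col4a1 was -5.24 without it. Col4a1, Col4a2 and Gja1 were also lowest of that group in replicate 3. P4ha2 was highest there (13.1, 14.4 and 17.7 CPM in order of replicate), and Enpp2 was not lowest (6.46, 4.75 and 6.14 CPM).

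The opposite genes that rose in wild type and fell in knockout were fewer and had other roles. Cd180, also called RP105, is a surface relative of TLR4 that lacks its signalling domain (ENSMUSG00000021624, GRCm39 chromosome 13, 102830066 to 102876137). It was at 165, 185 and 104 CPM in wild-type water and 347, 316 and 327 CPM with MDP. In knockout it fell from 204, 206 and 209 CPM to 144, 128 and 128 CPM (interaction 1.75, SE 0.23, adjusted p = 0.00094). Lrrc14b rose in wild type from 6.71, 6.28 and 7.42 CPM to 16.9, 17.6 and 22.8 CPM and fell in knockout from 13.9, 13.8 and 11.6 CPM to 3.84, 2.64 and 4.07 CPM (interaction 3.39, SE 0.26, adjusted p = 4.2e-05).

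Spdl1, the kinetochore adaptor Spindly, rose in wild type from 14.3 ± 1.18 to 28.1 ± 1.02 CPM and fell in knockout from 29.8 ± 1.06 to 18.1 ± 0.827 CPM (SD, n = 3; interaction 1.69, SE 0.13, adjusted p = 3.9e-05). Serpinb10, a serine protease inhibitor, and Nav2 had interactions of 2.59 (SE 0.40, adjusted p = 0.0026) and 1.48 (SE 0.21, adjusted p = 0.0014). The naming rule required that water and MDP libraries not overlap in either genotype for these 5 genes, so this is no separate result. All 24 opposite genes kept the interaction call whichever single library was left out. Their class was less firm: between 8 and 94 genes met it in those fits, since each genotype's own response must pass as well.

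**Figure D2:**
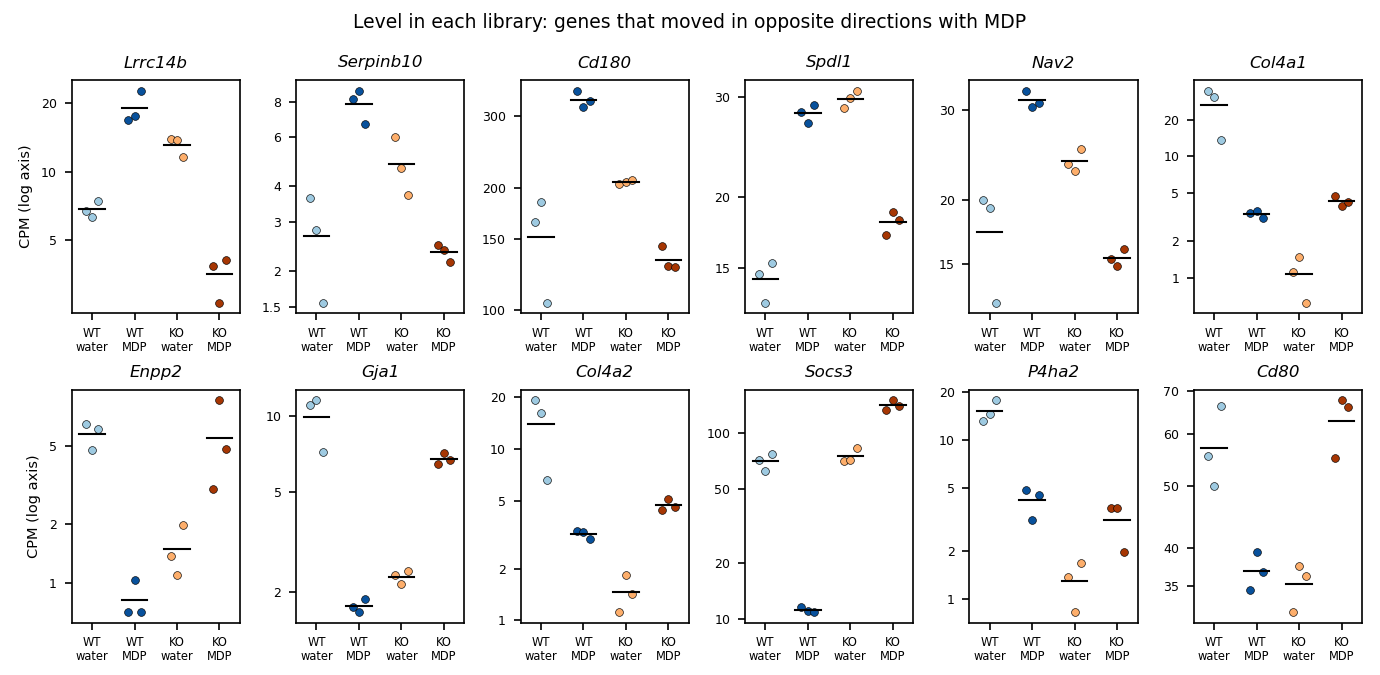
Level in CPM (log axis, scaled per panel) of the 11 opposite genes named by rule and of Cd80 in each of the 12 libraries; points are libraries and bars are means of 3. In every panel the wild-type and knockout pairs step in opposite directions, and Socs3 starts at 62.4 to 82.6 CPM in both genotypes and ends at 10.9 to 11.7 CPM in wild type and 133 to 150 CPM in knockout.

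Smaller opposite changes included Ripk2, the kinase downstream of NOD2. It was at 32.4, 37.0 and 53.1 CPM in wild-type water and 22.4, 22.3 and 24.2 CPM with MDP, against 22.4, 20.03 and 23.9 CPM and then 25.3, 26.6 and 28.8 CPM in knockout (interaction -1.12, SE 0.22, adjusted p = 0.011). Ctsl, the protease cathepsin L, rose in wild type by 0.80 and fell by 0.19 on the log2 scale in knockout (interaction 0.99, SE 0.20, adjusted p = 0.012). Lgmn, the lysosomal protease legumain, showed the same pattern (0.73 and -0.24, interaction 0.97, SE 0.11, adjusted p = 0.00068). Me1, malic enzyme, fell from 18.5 to 3.96 CPM in wild type and rose from 6.45 to 8.71 CPM in knockout (interaction -2.65, SE 0.51, adjusted p = 0.0098).

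The 6 named genes that rose in wild type only were Slc4a8, Slco5a1, Lipg, Scube1, Cebpe and Adgre4. Slc4a8, a sodium-dependent bicarbonate exchanger, was at 13.8, 11.8 and 2.21 CPM in wild-type water and 96.6, 105 and 94.5 CPM with MDP, and stayed between 6.16 and 8.82 CPM in all 6 knockout libraries (interaction 3.47, SE 0.62, adjusted p = 0.007). Slco5a1, of the organic anion transporter family, rose from 6.16, 5.73 and 1.05 CPM to 30.99, 31.2 and 35.2 CPM and was at 1.74 to 2.82 CPM in knockout (interaction 2.96, SE 0.64, adjusted p = 0.018). Lipg, endothelial lipase, and Scube1 had interactions of 4.89 (SE 0.77, adjusted p = 0.0031) and 3.84 (SE 0.78, adjusted p = 0.013), with wild-type means rising from 0.182 to 6.54 CPM and from 0.941 to 11.9 CPM. In these 4 genes wild-type MDP stood above all other groups.

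Cebpe, a transcription factor of granulocyte maturation, and Adgre4, an adhesion receptor of myeloid cells, differed from those in where the knockout stood. Cebpe was at 0.858, 0.914 and 1.05 CPM in wild-type water, 6.45, 6.56 and 4.78 CPM in wild-type MDP and 4.32 to 6.08 CPM in all 6 knockout libraries (interaction 2.53, SE 0.29, adjusted p = 0.00056). The untreated knockout was thus already at the level that MDP-treated wild type reached (knockout minus wild type under MDP -0.12, adjusted p = 0.70). Adgre4 was alike, at 0.828, 4.11, 5.28 and 4.40 CPM on average in wild-type water, wild-type MDP, knockout water and knockout MDP (interaction 2.57, SE 0.47, adjusted p = 0.0074). Neutrophil markers summed to between 1581 and 2392 CPM for untreated wild type, 1846 to 1977 for wild-type MDP and 2324 to 2480 CPM in the knockout libraries, most of it Mmp8, the neutrophil collagenase. Among the low members, Ngp, a neutrophil granule protein, had means of 1.11, 7.52, 6.77 and 9.40 CPM in wild-type water, wild-type MDP, knockout water and knockout MDP. Ltf, lactoferrin, had 0.818, 6.23, 1.82 and 3.02 CPM in that order. Of the 11 markers tested, these 2 passed as rising in wild type (4.66% of all genes) and 0 passed as falling (3.65% of all genes). Cxcr2, Mpo and Ctsg had lower means in wild-type MDP than in wild-type water (0.725 and 1.52, 0.0347 and 0.107, 0 and 0.0574 CPM), without passing. The part of neutrophil RNA in the results for Cebpe and Adgre4 was not tested.

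The 6 named genes that fell in wild type only were Ltbp2, Col12a1, Grem1, Dclk1, Tnfsf14 and Mcpt8. Ltbp2, a matrix protein related to the TGF-beta binding proteins, was at 49.7, 47.8 and 8.52 CPM in wild-type water and 2.13, 1.82 and 3.62 CPM with MDP (interaction -4.38, SE 0.88, adjusted p = 0.013). Col12a1, a fibril-associated collagen, and Grem1, an inhibitor of bone morphogenetic proteins, fell from 38.9 to 2.90 CPM and from 29.9 to 1.97 CPM. In knockout their 6 libraries lay at 0.299 to 0.918 CPM and 0.0598 to 0.311 CPM. Dclk1, a microtubule-associated kinase, fell from 6.26 to 0.224 CPM. All 4 fell together with the stroma marker sum given above, and the part of those cells was not tested. The interaction call of Dclk1, Col12a1 and Grem1 was lost when 7, 6 and 5 of the 12 libraries were left out in turn, and that of Ltbp2 in none.

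Tnfsf14, the cytokine LIGHT, was at 14.6, 19.6 and 86.0 CPM in wild-type water and 3.83, 3.07 and 3.17 CPM with MDP, and at 1.795 to 3.73 CPM in knockout (interaction -3.63, SE 0.89, adjusted p = 0.031). Its size rested on wild-type water replicate 3, without which the interaction was -2.41, and its call was lost in 9 of the 12 fits. Mcpt8, a basophil protease, had 5 to 9 counts in the wild-type water libraries and none in those with MDP, at least 7.4-fold lower against a floor of 3 counts over the group. It was at 5.79 to 7.12 CPM in knockout water and 4.75 to 8.02 CPM in knockout MDP, so the genotypes differed far more than the treatments. Markers of mast cells and basophils summed to 21.2 to 66.0 CPM in the 12 libraries, and Kit and Gata2 gave most of the mean sum in wild type. The sum did not differ between genotypes as Mcpt8 did: the range of 51.9 to 58.0 CPM in knockout water lay inside that of 21.2 to 66.0 CPM in wild-type water. Over the 7 members tested, the median knockout-minus-wild-type log2 difference in water was 2.13. Some other members differed between genotypes as Mcpt8 did: Cpa3, carboxypeptidase A3, had means of 3.07 and 0.625 CPM in wild-type water and MDP and 13.5 and 15.1 CPM in knockout. Ms4a2, a chain of the IgE receptor, had 0.101 CPM in wild-type water and 1.98 CPM in knockout water. The part of these cells in the result for Mcpt8 was not tested.

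Of the 6 named genes that rose in knockout only, Slc7a2, a cationic amino acid transporter that supplies arginine, had the highest level (ENSMUSG00000031596, GRCm39 chromosome 8, 41315433 to 41375345). It was at 151, 158 and 157 CPM in knockout water and 447, 436 and 403 CPM with MDP. In wild type it was at 67.0, 69.0 and 37.3 CPM and then 56.4, 47.1 and 64.1 CPM, with overlapping groups (interaction -1.52, SE 0.27, adjusted p = 0.0064). Slc1a2, a glutamate transporter, rose in knockout from 1.54, 1.38 and 1.12 CPM to 11.1, 10.3 and 8.56 CPM and was at 0.312 to 0.606 CPM in wild type (interaction -3.30, SE 0.39, adjusted p = 0.00066).

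Trem1, a receptor that amplifies inflammatory signals on myeloid cells, rose from 7.77 ± 0.738 to 18.5 ± 1.44 CPM in knockout and was at 5.73 ± 1.86 and 4.56 ± 1.09 CPM in wild-type water and MDP (SD, n = 3; interaction -1.58, SE 0.32, adjusted p = 0.012). Cav1, the caveolar coat protein caveolin-1, rose from a mean of 32.7 to 68.6 CPM in knockout and was at 11.96 to 18.3 CPM in wild-type water and 10.5 to 12.6 CPM in wild-type MDP (interaction -1.57, SE 0.21, adjusted p = 0.0012). Without wild-type water replicate 3, Cav1 passed as falling in wild type and joined the opposite genes. Susd2 and Tmeff1 rose from 4.18 to 21.7 CPM and from 4.53 to 14.5 CPM in knockout. Their interaction calls (adjusted p = 0.029 and 0.021) were lost in 11 and 6 of the 12 fits that left out a library.

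The knockout-only genes that fell included Dnmt3a, a de novo DNA methyltransferase. It was at 386, 372 and 381 CPM in knockout water and 204, 194 and 197 CPM with MDP, against 348 to 514 CPM and 497 to 568 CPM in wild type (interaction 1.23, SE 0.17, adjusted p = 0.0013). Dio2, which activates thyroid hormone, fell from 41.0 ± 3.61 to 17.99 ± 3.74 CPM in knockout, and its wild-type libraries overlapped at 41.5 ± 8.45 and 56.9 ± 11.2 CPM (SD, n = 3; interaction 1.64, SE 0.27, adjusted p = 0.0038). Arnt2, a partner of basic helix-loop-helix transcription factors, had an interaction of 1.30 (SE 0.20, adjusted p = 0.0029); without wild-type water replicate 3 it also passed as rising in wild type.

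C1qc, a chain of complement C1q, fell in knockout from 74.1, 66.4 and 66.6 CPM to 34.5, 29.5 and 25.8 CPM, with wild-type values of 231, 251 and 81.4 CPM and then 282, 222 and 249 CPM. Kif23, a kinesin of cytokinesis, and Slco2b1, an organic anion transporter, fell in knockout by 0.88 and 1.46 on the log2 scale. The interaction calls of C1qc, Kif23 and Slco2b1 were lost in 9, 8 and 10 of the 12 fits. Of the 191 knockout-only genes, 98 kept that class without wild-type water replicate 3, against 412 of 412 for wild type only and 77 of 77 opposite genes. In that fit 5355 genes passed in wild type instead of 1248, so these shares do not rank how firm the classes are. Without 1 of the wild-type MDP libraries, wild type only held 48 to 66 genes and knockout only 104 to 114. Without 1 of the knockout libraries, they held 287 to 340 and 88 to 106.

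**Figure D3:**
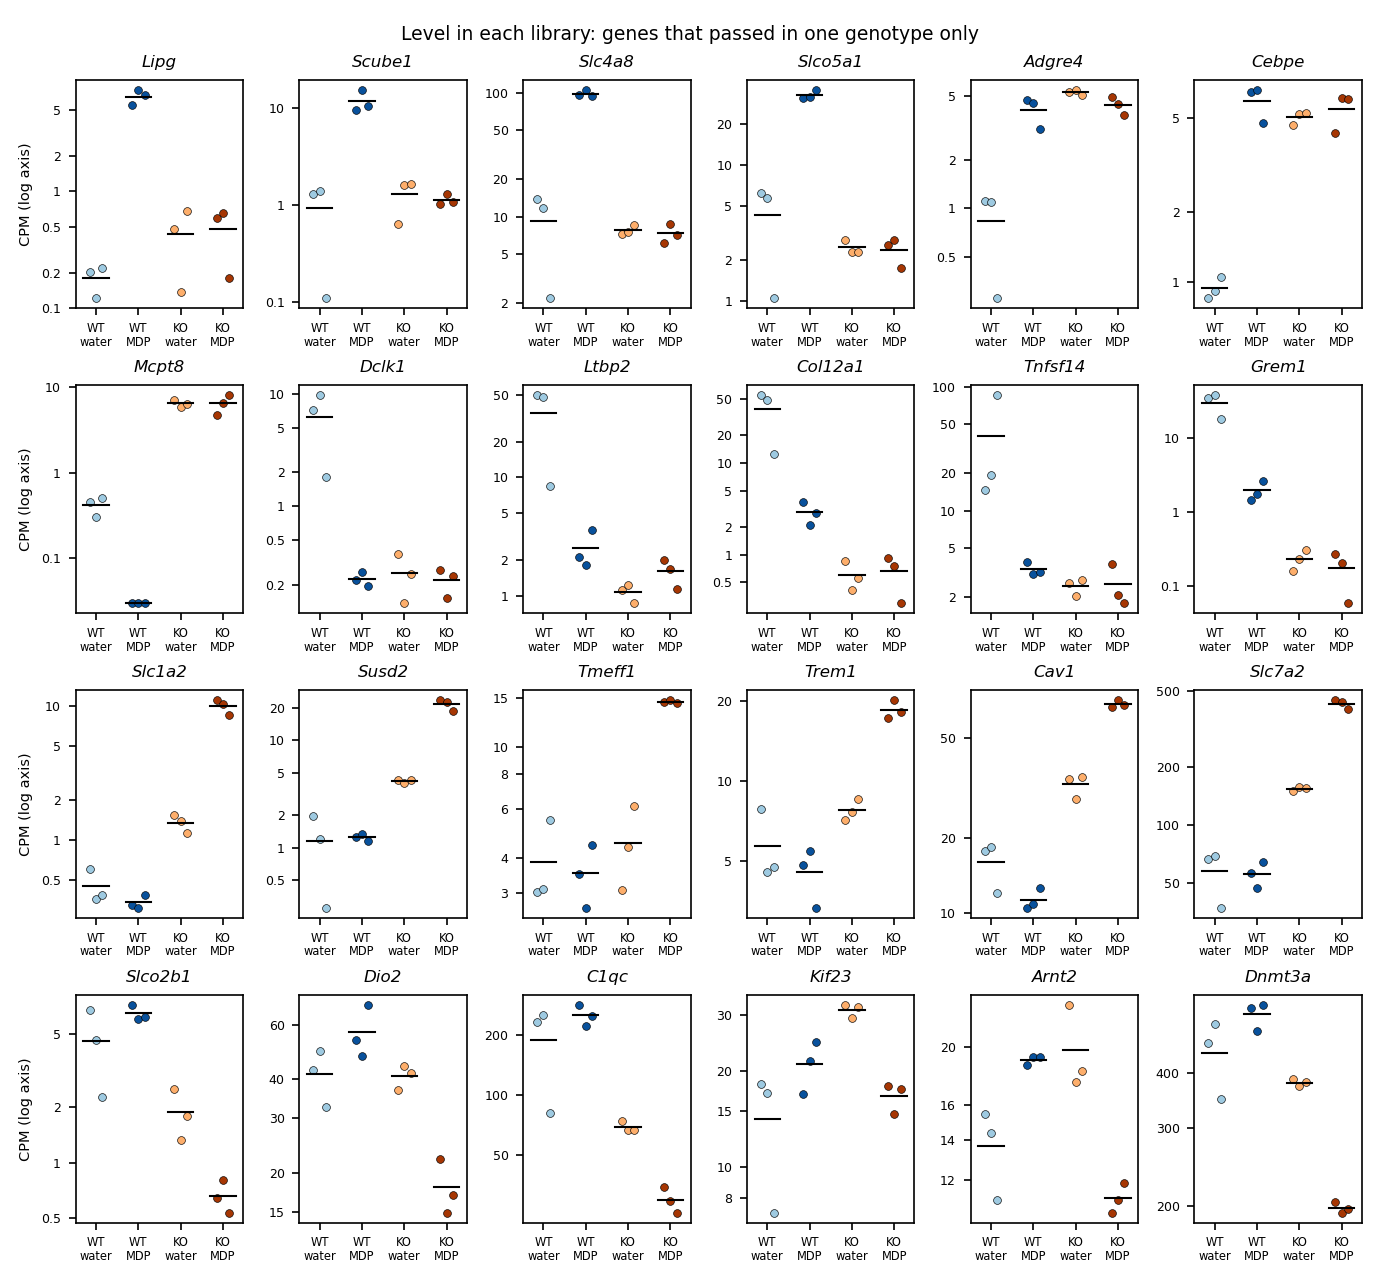
Level in CPM (log axis, scaled per panel) of the 24 genes named for passing in 1 genotype only, 12 in wild type (upper panels) and 12 in knockout (lower panels); points are libraries and bars are means of 3. The zero counts of Mcpt8 in wild-type MDP are drawn at 0.03 CPM, and replicate 3 is the lowest wild-type water library for Slc4a8, Slco5a1, Ltbp2 and C1qc.

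Of the 193 genes that moved the same way in both genotypes, 160 rose and 33 fell, and all but 2 changed more in wild type. Those 2 were Ccl22 and Saa3, which rose more in knockout. This skew is partly set by the class. Each member had to pass in wild type, where the water libraries spread by 34.6% against 5.69% in knockout. Genes with a larger change in knockout that did not pass in wild type were counted as knockout only or open instead. Type I interferon response genes were the largest listed group: all 39 tested rose in knockout (background 10.1%) and 29 rose in wild type (4.66%). The interaction passed for 19, all of them higher in wild type, against 4.79% of all genes that were higher; without wild-type water replicate 3 it passed for 30, all higher. The median log2 response was 1.93 in wild type and 0.60 in knockout, beside -0.03 and 0.0048 over all genes tested. The starting levels differed too: in water the median of the list was higher in knockout by 0.77, and under MDP the knockout-minus-wild-type median was -0.32.

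Irf7, the transcription factor that amplifies interferon output, was at 10.1, 26.1 and 13.5 CPM in wild-type water and 201, 171 and 156 CPM with MDP. In knockout it rose from 36.0, 37.6 and 49.1 CPM to 71.0, 96.3 and 71.9 CPM (interaction 2.45, SE 0.40, adjusted p = 0.0043). Ifit2, an antiviral RNA-binding protein, rose from 19.4, 31.6 and 5.31 CPM to 269, 226 and 203 CPM in wild type and from 66.6, 57.7 and 74.0 CPM to 89.3, 121 and 106 CPM in knockout (interaction 2.96, SE 0.60, adjusted p = 0.013). Ifit3 had the largest interaction of the list (3.06, SE 0.72, adjusted p = 0.026), but its call was lost in 9 of the 12 fits. Rsad2, the antiviral enzyme viperin, and Usp18, which removes ISG15 from proteins and restrains interferon receptor signalling, had interactions of 2.18 (SE 0.40) and 1.47 (SE 0.17). The call held in all 12 fits for 11 of the 19. Of the 14 with a promoter entry, 9 held GAAANNGAA.

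**Figure D4:**
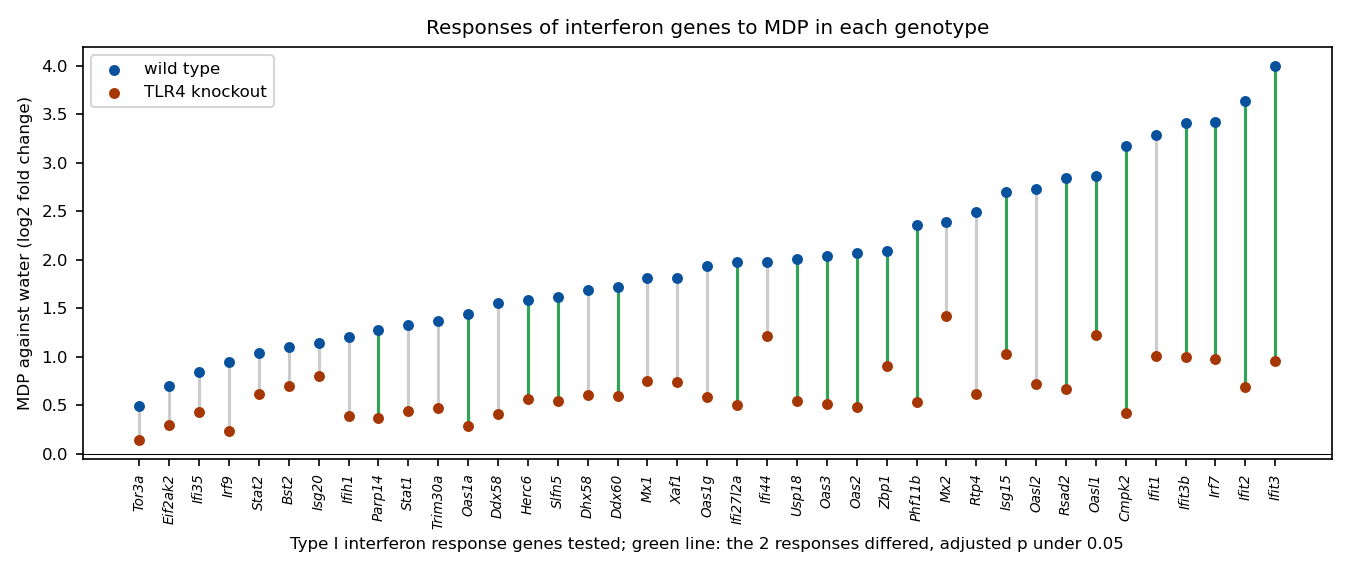
Log2 change from water to MDP of the 39 interferon response genes tested, in wild type (blue) and in TLR4 knockout (brown), ordered by the wild-type change; a green line joins the 2 values where the interaction passed. Every brown point lies above 0 and below its blue point, and 19 lines are green.

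NF-kB targets and feedback regulators rose in both genotypes, 11 of 26 in wild type (background 4.66%) and 23 of 26 in knockout (10.1%), with medians of 0.54 and 0.40. The interaction was higher for 6 (4.79% of all genes) and lower for 2 (3.45%), or for 12 and 7 without wild-type water replicate 3. Among the 6 were 3 genes of NF-kB subunits, Relb, Nfkb2 and Rel. Relb went from 46.2, 48.3 and 27.7 CPM to 159, 180 and 156 CPM in wild type and from 49.2, 49.8 and 57.2 CPM to 66.3, 69.9 and 68.7 CPM in knockout (interaction 1.63, SE 0.23, adjusted p = 0.0018). Nfkb2 and Rel had interactions of 0.90 (SE 0.13) and 0.85 (SE 0.14). Tnfaip3, the deubiquitinating brake A20, and Ccrl2 had 0.71 (SE 0.11) and 1.53 (SE 0.25), and Marcksl1 had 1.25 (SE 0.27). The 2 lower ones, Sod2 (mitochondrial superoxide dismutase) and Zc3h12a (the RNase regnase-1), passed in knockout only, and both calls were lost in 9 of the 12 fits.

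Of 27 cytokines and chemokines tested, 3 had a higher (4.79% of all genes) and 2 a lower (3.45%) interaction. The balance turned to 5 higher and 9 lower without wild-type water replicate 3. Ccl5, a T cell attractant, rose from 33.4, 37.6 and 27.3 CPM to 391, 407 and 408 CPM in wild type and from 82.0, 94.4 and 86.1 CPM to 274, 351 and 373 CPM in knockout (interaction 1.69, SE 0.18, adjusted p = 0.00044). Cxcl16 and Csf1, the gene of M-CSF, had interactions of 1.01 (SE 0.14) and 0.96 (SE 0.21); Csf1 fell in knockout only. Ccl22 and Ccl8 had -1.003 (SE 0.23) and -2.48 (SE 0.68), and Ccl8 was at most 1.62 CPM on average in any group. These 2 calls were lost in 6 and 10 of the 12 fits that left out a library. Mmp9, the matrix protease gelatinase B, stood out among remodelling genes, going from 4.39, 5.18 and 11.6 CPM to 106, 141 and 97.3 CPM in wild type and from 15.4, 12.2 and 17.0 CPM to 27.0, 32.4 and 24.4 CPM in knockout (interaction 3.10, SE 0.43, adjusted p = 0.0016).

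In the receptor pathways themselves the shares were near those of all genes. Of 27 genes of NOD2 and muramyl peptide sensing, Birc2 (the ubiquitin ligase cIAP1) had a higher interaction (0.93, SE 0.16), and Ripk2 and the peptide transporter Slc15a2 (-2.02, SE 0.43) a lower one, 3 in all. Nod2 was at 12.9 ± 2.86 and 14.4 ± 1.39 CPM in wild-type water and MDP and 17.2 ± 0.263 and 22.0 ± 1.11 CPM in knockout (SD, n = 3), and its interaction did not pass (-0.21, SE 0.20, adjusted p = 0.57). Of 21 genes of the TLR4 complex and its adaptors, Cd180 and the kinase Ikbke (1.37, SE 0.32) passed, both higher, and the call of Ikbke was lost in 9 of the 12 fits. The share of all genes was 8.24%. Without wild-type water replicate 3, 10 of the 27 and 7 of the 21 passed, beside 26.9% of all genes.

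Cell cycle genes fell in knockout, 32 of 34 (background 9.61%), and 0 of 34 passed in wild type with edgeR, where 4 had an unadjusted p below 0.05, against 3 passing with DESeq2, all higher. The medians were 0.67 in wild type and -0.63 in knockout, and 8 passed the interaction, all higher (4.79% of all genes). Pcna, the DNA polymerase clamp, was at 187, 175 and 174 CPM and then 226, 219 and 209 CPM in wild type, and at 215, 201 and 191 CPM and then 149, 165 and 167 CPM in knockout (interaction 0.63, SE 0.10, adjusted p = 0.0038). It alone of the 8 kept its call in all 12 fits. Without wild-type water replicate 3, 32 of the 34 passed the interaction, all higher, 21 rose in wild type, and the median interaction was 0.93 instead of 1.32.

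Cholesterol and fatty acid synthesis genes also had higher interactions: 10 of 29 passed the interaction, all higher (4.79% of all genes), with median responses of 0.58 in wild type and -0.10 in knockout. Inside the genotypes fewer passed: 3 rose and none fell in wild type, and 3 rose and 6 fell in knockout. Fdft1, squalene synthase, was at 37.2, 38.3 and 29.6 CPM and then 60.6, 68.7 and 67.7 CPM in wild type, and at 60.3, 52.9 and 56.9 CPM and then 48.9, 50.9 and 49.4 CPM in knockout (interaction 1.10, SE 0.14, adjusted p = 0.00094). Pmvk and Lss, of the mevalonate and sterol steps, rose in wild type only (interactions 1.56, SE 0.19, and 0.75, SE 0.16). The calls of these 3 held in all 12 fits and those of the other 7 did not; without wild-type water replicate 3, 17 were higher and 2 lower. Wild-type water replicate 3 had the lowest level of this list, as it had for the cell cycle and interferon lists.

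Glycolysis and HIF-1 target genes leaned the other way, with 1 higher (4.79% of all genes) and 5 lower (3.45%) of 25, or 2 and 15 without wild-type water replicate 3. They rose in knockout for 18 (background 10.1%), and in wild type 1 rose and 2 fell. Bnip3, a mitophagy receptor induced by HIF-1, rose in knockout from 65.2 to 123 CPM and was at 30.6 and 23.9 CPM in wild type (interaction -1.27, SE 0.25, adjusted p = 0.01). Pfkp and Ndrg1 fell in wild type only, from 203 to 114 CPM and from 102 to 45.3 CPM. The higher one was Pfkfb3, the activator of phosphofructokinase, which rose from 90.3 to 308 CPM in wild type and from 101 to 165 CPM in knockout (interaction 1.06, SE 0.13, adjusted p = 0.00067).

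**Figure D5:**
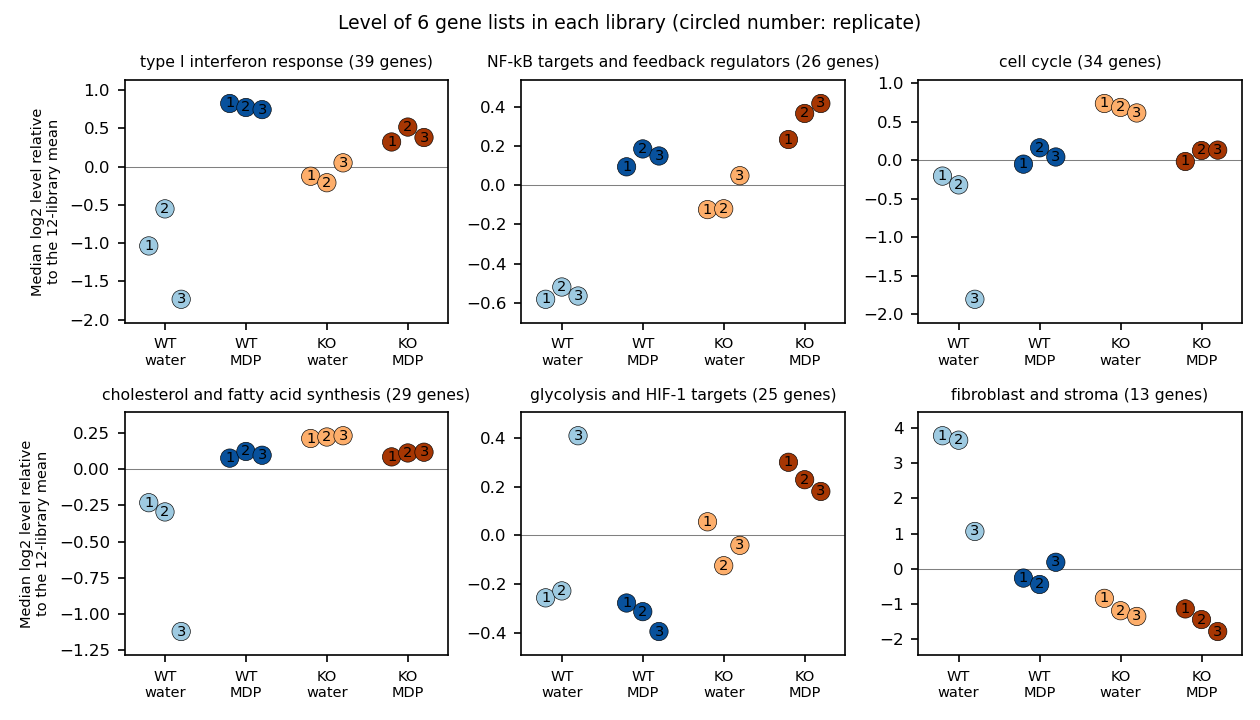
Median log2 level of 6 gene lists in each of the 12 libraries, relative to each gene's mean over the 12; circled numbers are replicates within a group and each panel has its own y axis. Wild-type water replicate 3 is the lowest library for the interferon, cell cycle and cholesterol lists and the highest for glycolysis, and the 3 wild-type water libraries are the highest for stroma markers.

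Among markers of other cell types, the interaction passed for 1 of 10 monocyte, 1 of 11 neutrophil, 2 of 7 dendritic cell, 1 of 6 osteoclast, 1 of 7 mast cell and basophil and 1 of 7 B cell genes, beside 8.24% of all genes. With wild-type water replicate 3 left out it passed for 3, 5, 3, 4, 4 and 4 of them in that order, beside 26.9% of all genes. Monocyte markers summed to 179 to 254 CPM in wild type and 887 to 1446 CPM in knockout, so the cultures differed in these transcripts at both treatments. NK cell and erythroid markers summed to at most 2.08 CPM.

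The same genotype contrast was set against GM, with (wild-type MDP minus wild-type GM) minus (knockout MDP minus knockout GM), which needs no water library. It passed for 2330 genes (15.5%), 1152 (7.67%) higher and 1178 (7.85%) lower. The GM groups did not spread alike either, with a coefficient of variation between replicates of 27.2% in wild type and 6.1% in knockout. Without wild-type GM replicate 2 the contrast passed for 4571 genes. This contrast shares the MDP libraries with the interaction above, so the values are given side by side and not as support. Socs3, at 108 ± 14.6 and 85.8 ± 3.03 CPM in wild-type and knockout GM, had -3.96 (SE 0.13, adjusted p = 4e-09), and Socs1 had -2.82 (SE 0.21). Cd180, at 132 ± 36.6 and 184 ± 1.59 CPM under GM, had 1.80 (SE 0.21, adjusted p = 0.00023), and Mmp9 had 2.24 (SE 0.19, adjusted p = 1.3e-05).

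For other genes the sign turned. Ccl5 was at 753, 532 and 888 CPM in wild-type GM and 107, 98.5 and 110 CPM in knockout GM, which gave -2.49 (SE 0.23, adjusted p = 3.2e-05), where against water it had 1.69. Irf7 turned as well, with -1.12 (SE 0.25, adjusted p = 0.013), as did Rsad2 (-1.24), Isg15 (-1.88) and Lcn2 (-2.64). Slc7a2 and Saa3, an acute-phase protein, had -4.47 (SE 0.24) and -4.16 (SE 0.26), both with a negative interaction against water as well. Saa3 was at 660 ± 179 CPM in wild-type GM but 96.9 ± 4.98 CPM in wild-type MDP, and at 341 ± 49.8 and 903 ± 111 CPM in knockout (SD, n = 3).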

How the data were processed

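RNA was measured by sequencing of poly(A)-enriched directional libraries, per the labels' protocols. HISAT2 2.0.5, build GRCm39 and featureCounts 1.5.0-p3 are named in the submitters' processing notes. Settings, strand use and annotation release are not given in the sources used here, so values of overlapping or near-identical genes are uncertain. The deposited table holds the authors' raw counts for 56748 genes. With edgeR 4.0.16 (R 4.3.3), filterByExpr (minimum count 10) kept 15013 genes, libraries were scaled by TMM, and a robust quasi-likelihood F test (2-sided, Benjamini-Hochberg threshold 0.05) was fitted to the 12 libraries with 1 mean per group, which gives the interaction and the genotype differences. Responses inside a genotype came from fits of its 6 libraries, because the groups spread differently. The comparison with GM used the 12 GM and MDP libraries. SE is that of the fitted log2 fold change, adjusted p-values are from these edgeR fits, and SDs are over the 3 libraries of a group. The test was also run on simulated counts with known changes, whose outcomes are not given here. The deposited FPKM table was not used.

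For each of 6 classes up to 6 protein-coding genes were named: the largest interactions among those with a mean of at least 5 CPM in 1 group and separate MDP and water libraries where they passed, with clone names left out. Beside them stand Tlr4, Nod2, Ripk2, the genes at the threshold and examples from the gene lists. Members, lists and rules were chosen with earlier results of these data known, so they are no independent evidence, and no set test was run. Promoter windows were matched to RefSeq by symbol for 10552 of 15010 gene names. Alternatives covered the samples in the fit, DESeq2 size factors, filters on low counts, DESeq2 1.42.0, limma-voom (limma 3.58.1) with a spread for each group, a replicate block and each library left out.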

Additional observations from a re-analysis of the deposited data

Results flagged for a closer look

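The MDP response differed between the genotypes by the interaction test itself for 1237 genes, and the genotype contrast under MDP differed from that under GM for 2330 genes. Among the genes named for opposite changes, the wild-type minus knockout log2 response was 3.39 for Lrrc14b, 2.59 for Serpinb10, 1.75 for Cd180, 1.69 for Spdl1 and 1.48 for Nav2. It was -4.94 for Col4a1, -4.69 for Enpp2, -4.04 for Gja1, -3.81 for Col4a2, -3.56 for Socs3 and -3.16 for P4ha2. Groups of 3 libraries are too small for a test of single outlying libraries.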

How the results depend on the processing

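No gene among the 1237 changed sign under any setting. With DESeq2 1981 genes passed the interaction, 52 were opposite by 1.5-fold and 839 wild type only. Under limma-voom with a spread for each group 1205 genes passed, but only 857 of the 1237 were among them. In that setting 27 were opposite by 1.5-fold and 359 wild type only. Counts of classes also moved with the fit behind the responses: taken from the 12-library fit, 831 genes were wild type only, 67 knockout only and 56 in the same direction, and MDP against water then passed for 3662 genes in wild type and 394 in knockout. Opposite genes numbered 77 with no minimum size and 13 at 2-fold each way. The contrast with GM passed for 1526 genes in the fit of all 18 libraries. Leaving out 1 library at a time, the interaction ranged from 662 to 4038 genes, opposite from 8 to 94, wild type only from 48 to 2034, knockout only from 88 to 524, same direction from 80 to 601, the wild-type response from 188 to 5355, the knockout response from 2366 to 2964 and the GM contrast from 1503 to 4571. The highest of these came without wild-type water replicate 3, except for the knockout response and for the GM contrast (without wild-type GM replicate 2). The lone pair left in a group was assumed to vary like the other groups.

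The replicate numbers did not pair the samples: over 18 same-numbered pairs the correlation of deviations was -0.0524 to 0.0692, and 6 of 12 libraries correlated best with their own number. With the replicate block, 977 genes passed the interaction, 11 were opposite by 1.5-fold, 87 wild type only, and 352 passed in wild type. Over 143 genes of the text and lists, 2158 of 2711 values kept direction and side of the threshold, 550 lost the call and 3 gained it, none reversing. Low-count genes such as Mcpt8 and Ccl8 are limited by depth.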
